A study of Mus musculus with 3 samples.

Results

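Aminoacyl-tRNA synthetases join each amino acid to its own tRNA and so supply the ribosome with charged tRNA. The genes described here are 36 such synthetases, taken by symbol from the 50600 genes of the count tables: 20 of the cytosolic set and 16 of the mitochondrial set, whose symbols end in 2. All 36 were found. The libraries came from mouse T-helper 1 (Th1) cells, the CD4 subset known for secreting interferon-gamma, which the labels give as primary cells of the C57BL/6NJ strain with age and sex not given. There were 3 libraries in 1 group, numbered as biological replicates 1, 2 and 3, with 1 donor entry for all of them. The labels name no untreated or other group, and the file headers name a time of 2 hours that the labels do not give. Separate animals are not stated as their source, so the p-values below measure only the spread between these samples, which may be technical.

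Both synthetase sets are encoded in the nucleus. The cytosolic enzymes serve the translation of nuclear-encoded proteins, while the mitochondrial enzymes are imported and charge the tRNAs of the mitochondrial genome. Gars and Kars each encode a cytosolic and a mitochondrial form from 1 gene, and several cytosolic enzymes sit together in the multisynthetase complex. T cells that have met antigen raise their protein synthesis, and several cytosolic synthetase genes are known targets of the stress-induced transcription factor ATF4 and of MYC.

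The libraries held 4442901, 3123869 and 2950658 counts in replicates 1, 2 and 3. Levels are given as TPM, the count per exon base scaled to a fixed sum in each library, so that genes of different length can be set side by side. The length is that of all annotated exons of a gene, so ranks by TPM depend on it. All 9 T cell genes examined passed 1 TPM in each library, at a median of 198 ± 109 TPM (SD, n = 3). Of the 5 Th1 genes, 3 had at least 1 TPM in each library. These were Tbx21, the defining transcription factor, at 2.53 ± 0.997 TPM from 19, 7 and 11 counts, Stat4 at 15.9 ± 6.49 TPM, and Il12rb2, opposed by Serbp1, at 11.9 ± 3.97 TPM (SD, n = 3 each). Cxcr3 had 6, 2 and 2 counts and Ifng, the defining cytokine, had 1, 2 and 0. Of the B cell markers reported here, Cd79a, unopposed, had 26.97, 48.7 and 33.55 TPM, while Ms4a1 and Cd22 had no count. Of the 5 myeloid markers, Csf1r, opposed by Hmgxb3, had 169, 129 and 175 TPM and Cd68, unopposed, 7.23 ± 1.39 TPM (SD, n = 3), while Lyz2, S100a8 and S100a9 had no count. The 2 NK cell and 2 erythroid markers had none. The part of such cells in the synthetase levels was not tested. Of the 2 CD8 T cell markers, 1 reached 1 TPM in every library, Cd8b1 at 6.73 ± 3.36 TPM (SD, n = 3), while Cd8a had 2, 1 and 0 counts. The counts rest on strand setting 1, which keeps a read pair for a gene only if read 1 maps to that gene's strand. mt-Nd6, the mitochondrial mRNA encoded on the strand opposite to the rest, had 28050, 23330 and 36100 TPM in replicates 1, 2 and 3, against medians of 600, 352 and 296 TPM for the 12 others, and it was above each of the 12 in every library. Genes with an exon facing an exon of another gene across strands (opposed genes) held 55.1%, 69.1% and 67.3% of counts, although 22.1% of protein-coding genes are of this kind. Were the setting opposite to the library, most reads of a gene's own mRNA would be missing from its count, and an opposed gene would carry reads of its neighbour. Levels below are therefore levels of these counts and are uncertain for all genes. Those of opposed genes may also hold reads of their neighbour. In bulk samples, fewer cells of a type and less RNA per cell cannot be told apart.

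The cytosolic synthetases were detected without exception, and their mitochondrial counterparts lay lower. All 20 cytosolic genes reached 1 TPM in every library, as did 13 of the 16 mitochondrial genes, where 38.7% of all protein-coding genes did. The median cytosolic level was 40.4, 17.97 and 26.1 TPM in replicates 1, 2 and 3, a mean of 28.2 ± 11.3 TPM (SD, n = 3). The mitochondrial median was 5.79, 4.35 and 4.49 TPM, a mean of 4.88 ± 0.791 TPM (SD, n = 3). The medians of the sets did not overlap across libraries. The median over all protein-coding genes was 0.252 ± 0.0511 TPM, and over those with at least 1 count 4.62 ± 1.36 TPM (SD, n = 3). On the scale log2(TPM + 0.1), the cytosolic mean exceeded the mitochondrial mean by 2.87, 2.31 and 2.63 in replicates 1, 2 and 3, or 2.60 ± 0.28 (SD, n = 3). These differences are a description, with no test over the genes.

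The same order held among genes that no gene of the other strand overlaps. Unopposed genes are those whose entire span, introns included, is free of genes across from it. The doubt over the strand setting holds for them too, so their values do not check that setting. Of the 36 genes, 12 were opposed, 21 unopposed, and 3 (Lars, Sars and Wars2) overlapped a gene of the other strand by span only, against the 22.1% of protein-coding genes that were opposed. Over unopposed genes, 12 cytosolic against 9 mitochondrial, the log2 difference was 2.74, 2.40 and 2.91 in replicates 1, 2 and 3, or 2.68 ± 0.26 (SD, n = 3). All 12 unopposed cytosolic genes reached 1 TPM in every library, where 32.0% of unopposed protein-coding genes did. The median of these 12 was 36.9 ± 15.8 TPM, the 9 mitochondrial ones had 5.59 ± 0.525 TPM, and unopposed protein-coding genes with a count had 3.89 ± 1.29 TPM (SD, n = 3).

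**Figure D1:**
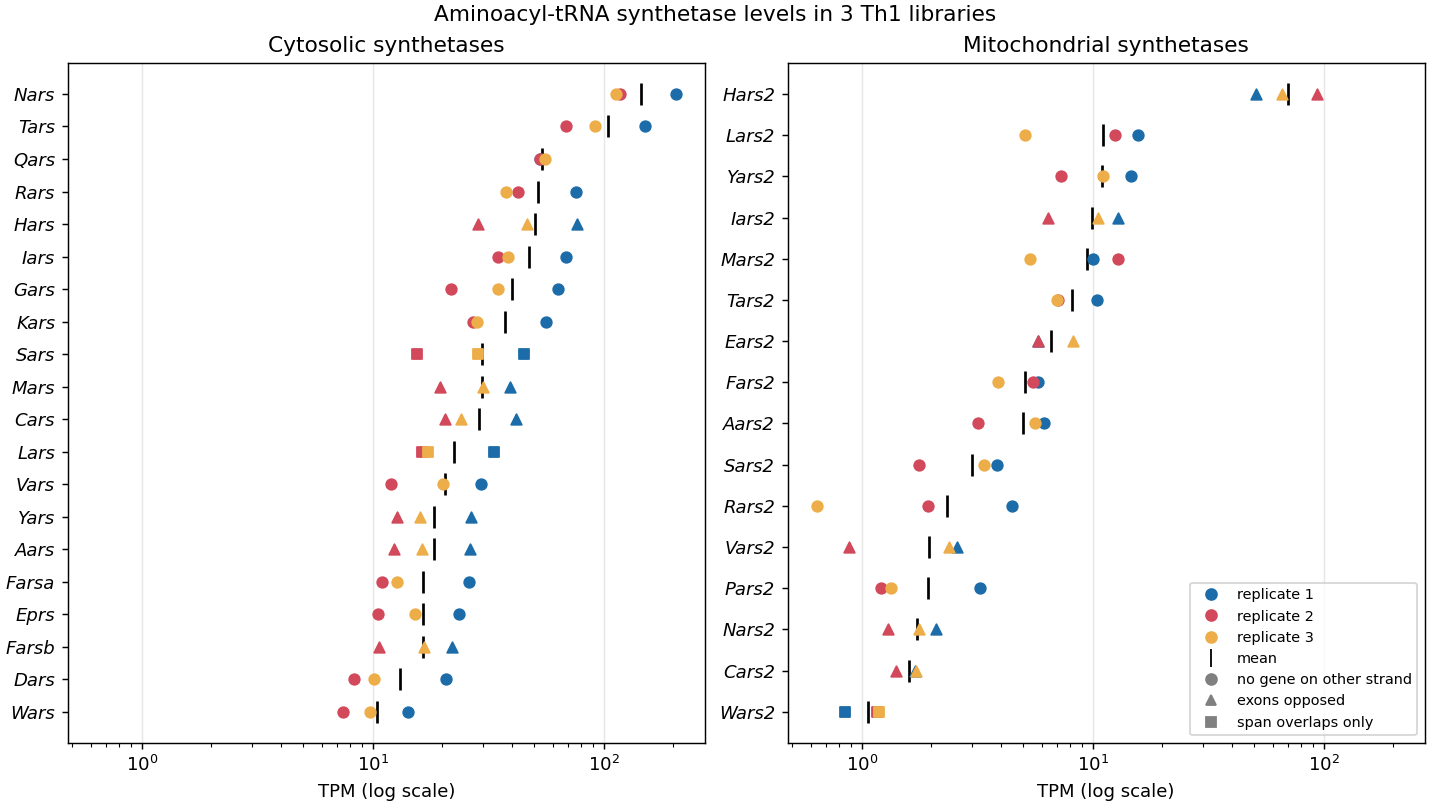
TPM of each synthetase (log axis) in each library, cytosolic genes on the left and mitochondrial genes on the right, ordered by their mean (black bar). Colours mark the replicates and shapes the strand class. Every cytosolic gene lies above 7 TPM in every library, while 1 mitochondrial gene, Hars2, opposed by Hars, reaches the levels of the highest cytosolic genes.

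Asparaginyl- and threonyl-tRNA synthetase led the cytosolic set by TPM. By counts over the 3 libraries the order differed, with 2260 for Nars, 1760 for Eprs and 1622 for Tars. Nars, which charges asparagine, had 205, 117.5 and 112 TPM in replicates 1, 2 and 3, above 97.9% of protein-coding genes by its mean. Tars, which charges threonine (mm10, chromosome 15, 11383663 to 11399658, 19 exon blocks), had 151, 68.6 and 91.8 TPM. Replicate 1 was highest for both. Their ranges across libraries overlapped, but Nars was above Tars in every library. Then came Qars at 53.9 ± 1.60 TPM, Rars at 51.9 ± 20.7, Hars at 50.4 ± 24.2, Iars at 47.2 ± 18.4, Gars at 40.1 ± 21.3 and Kars at 37.2 ± 16.6 (SD, n = 3 each), which charge glutamine, arginine, histidine, isoleucine, glycine and lysine. The ranges of these 6 across libraries overlapped. Within each library Rars, Hars and Iars all lay above Gars and Kars, while the order of the other pairs changed between libraries. By TPM Qars was the most even of the 6, with 52.98, 52.97 and 55.8 in replicates 1, 2 and 3, whereas on CPM scaled for library composition it had 148, 231 and 230. The other 5 were highest in replicate 1. Rars had 75.6, 42.4 and 37.6 TPM, Hars 76.4, 28.4 and 46.5 TPM and Iars 68.4, 34.9 and 38.4 TPM. Gars had 63.6, 21.9 and 34.9 TPM and Kars 56.4, 27.2 and 28.1 TPM.

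The lowest cytosolic genes were Wars, Dars and Farsb. Wars, which charges tryptophan and is induced by interferon-gamma in human cells, had 14.2, 7.42 and 9.74 TPM. Dars, which charges aspartate, had 20.7, 8.32 and 10.1 TPM. Farsb, the beta subunit of the phenylalanine enzyme, had 22.0, 10.6 and 16.6 TPM, and its partner Farsa, the alpha subunit, 26.0, 10.9 and 12.7 TPM. The subunits of this enzyme thus lay within their spread of each other, at 16.5 ± 8.22 TPM for Farsa and 16.4 ± 5.70 TPM for Farsb (SD, n = 3 each). Eprs, a bifunctional gene for glutamate and proline with 18102 exon bases, had 23.6, 10.6 and 15.2 TPM from 934, 359 and 467 counts. The other 7 cytosolic genes had means of 18.3 to 29.6 TPM, and each was highest in replicate 1 and lowest in replicate 2 by TPM, where 45.0% of all genes kept were so. On CPM scaled for library composition, Mars and Vars were highest in replicate 3. Sars, for serine, had 44.96, 15.45 and 28.4 TPM, Cars, for cysteine, 41.5, 20.6 and 24.2 TPM, and Mars 39.3, 19.6 and 29.9 TPM. Lars, for leucine, had 33.5, 16.3 and 17.3 TPM and Vars, for valine, 29.5, 11.98 and 20.06 TPM. Yars, for tyrosine, had 26.6, 12.7 and 16.06 TPM and Aars, for alanine, 26.2, 12.35 and 16.4 TPM.

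Promoters were examined for the core of the CEBP-ATF response element, the site through which ATF4 is known to act. The RefSeq promoter table (GRCm38.p6, 250 bases before to 50 after each start) held 27 of the 36 genes. The motif TGATGNAA, searched on both strands, was found in 5 of 13 cytosolic promoters, those of Aars, Gars, Iars, Tars and Yars, and in 0 of 14 mitochondrial promoters. Of all 32851 promoters in the table, 3.97% held it. The windows below show 1 match for each of the 5 in capitals, with 10 bases on either side, in the gene's own direction. A match on the other strand appears as its reverse complement. The set is shown because no mitochondrial promoter held a match.
Aars, base 10 after the start, chr8:111033841-111033868, plus strand: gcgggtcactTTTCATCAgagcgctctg
Gars, 30 bases before the start, chr6:55037961-55037988, plus strand: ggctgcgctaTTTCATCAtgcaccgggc
Iars, base 8 after the start, chr13:49682127-49682154, plus strand: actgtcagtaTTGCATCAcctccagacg
Tars, 15 bases before the start, chr15:11399656-11399683, minus strand: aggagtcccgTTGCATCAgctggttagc
Yars, base 4 after the start, chr4:129189896-129189923, plus strand: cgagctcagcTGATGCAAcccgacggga

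In Gars and Tars the match lay just upstream of the start, and the 250 bases before it are given for both, with the match in capitals. The same stretch of Aars2, the mitochondrial alanine gene, held none and is given for comparison.
Gars, chr6:55037751-55038000, plus strand: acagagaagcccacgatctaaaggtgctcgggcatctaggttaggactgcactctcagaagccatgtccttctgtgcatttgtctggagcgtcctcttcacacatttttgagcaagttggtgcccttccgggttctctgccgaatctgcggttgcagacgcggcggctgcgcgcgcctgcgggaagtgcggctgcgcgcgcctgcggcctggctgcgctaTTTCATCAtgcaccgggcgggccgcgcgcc
Tars, chr15:11399659-11399908, minus strand: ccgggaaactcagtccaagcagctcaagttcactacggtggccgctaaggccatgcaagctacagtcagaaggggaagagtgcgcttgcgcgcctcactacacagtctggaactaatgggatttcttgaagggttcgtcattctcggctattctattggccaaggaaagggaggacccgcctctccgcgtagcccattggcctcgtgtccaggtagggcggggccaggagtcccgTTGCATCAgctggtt
Aars2, chr17:45506582-45506831, plus strand: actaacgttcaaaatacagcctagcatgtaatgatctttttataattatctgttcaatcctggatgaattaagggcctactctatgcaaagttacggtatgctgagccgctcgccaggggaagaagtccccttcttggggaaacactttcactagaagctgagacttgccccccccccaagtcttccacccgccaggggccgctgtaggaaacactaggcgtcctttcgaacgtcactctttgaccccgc

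The 5 cytosolic genes with the motif had a median of 63.6, 21.9 and 34.9 TPM in replicates 1, 2 and 3, against 32.6, 13.2 and 22.4 TPM for the 8 cytosolic genes whose matched promoter lacked it. The median with the motif was the higher in 3 of 3 libraries, each time the value of Gars, and no test was made over the genes. Of the 5, Aars and Yars lay below the median without the motif in every library. Cars, Hars, Lars, Nars, Rars, Vars and Wars had no matched promoter and are in neither median. They include Nars, Rars and Hars, among the 8 highest cytosolic genes by mean TPM, and Wars, the lowest. The E-box CACGTG, to which MYC is known to bind, was searched after levels had been seen and shares no base with a TGATGNAA match here. It was present in 4 of 13 cytosolic promoters (Aars, Farsb, Iars and Tars) and in 1 of 14 mitochondrial ones (Ears2), where 7.15% of all promoters held it. A match is a description of letters, and its absence says nothing of the factor.

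Among mitochondrial synthetases, Hars2 stood far above the rest. This gene for the mitochondrial histidine enzyme, opposed by Hars and so uncertain in level, had 50.9, 93.2 and 66.1 TPM in replicates 1, 2 and 3. No other mitochondrial gene passed 16 TPM in any library. Lars2, for leucine, had 15.6, 12.5 and 5.10 TPM, Yars2, for tyrosine, 14.7, 7.28 and 11.04 TPM, and Iars2, for isoleucine, 12.9, 6.42 and 10.5 TPM. Their ranges overlapped. Mars2, for methionine and a gene of 1 exon block with 11294 bases, had 9.99, 12.9 and 5.32 TPM. Lars2 and Mars2 were lowest in replicate 3, whereas Yars2 and Iars2 were lowest in replicate 2.

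The weakest mitochondrial genes rested on few counts. Wars2, for tryptophan, had 0.845, 1.17 and 1.19 TPM from 11, 13 and 12 counts. Cars2, for cysteine, had 1.71, 1.4 and 1.71 TPM, and Nars2, for asparagine, 2.10, 1.30 and 1.78 TPM. Rars2, for arginine, had 27, 10 and 3 counts, or 4.45, 1.92 and 0.638 TPM, and the exact 95% Poisson interval in replicate 3 was 0.132 to 1.86 TPM. Vars2, for valine, had 31, 9 and 22 counts. Rars2, Vars2 and Wars2 were the genes that missed 1 TPM in a library, each in 1 of 3. Tars2, Ears2, Fars2, Aars2, Sars2 and Pars2 had means of 8.15, 6.60, 5.07, 4.98, 3.00 and 1.93 TPM.

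Setting the enzymes for the same amino acid side by side removes differences in which amino acids each set covers. There were 17 such pairs, with Eprs and Fars2 each used in 2. The cytosolic gene was higher in every library in 16 of 17 pairs, and in all 4 pairs where neither gene overlapped a gene of the other strand. The median log2 ratio over the 17 pairs was 2.23. No test was made over pairs.

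The widest gap was for asparagine. Nars had 2260 counts and Nars2 70 over the 3 libraries, 85.5-fold more per exon base (95% exact interval 67.4 to 110.0). The log2 ratio was 6.54, 6.39 and 5.91 in replicates 1, 2 and 3. For arginine the Rars to Rars2 ratio was 21.4 (15.6 to 30.1), for cysteine Cars to Cars2 18.4 (14.4 to 23.9) and for threonine Tars to Tars2 12.9 (11.4 to 14.5). Intervals cover counting error only. The pairs for valine, serine, tryptophan and proline lay between 8.36-fold and 10.7-fold per base, and that for isoleucine at 4.82-fold.

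Other pairs were close. Yars had 650 counts and Yars2 203, a ratio per base of 1.70 (1.45 to 2.00), and Lars to Lars2 had 2.01 (1.79 to 2.25). Mars to Mars2 varied most among the pairs of constant sign, with log2 ratios of 1.96, 0.60 and 2.47. Lars to Lars2 likewise was lowest in replicate 2, at 0.38, against 1.10 in replicate 1 and 1.74 in replicate 3. The Aars, Farsa, Farsb and Eprs ratios, the last to Ears2, had means of 1.84, 1.60, 1.63 and 1.25 on the log2 scale.

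Histidine was the exception. Hars had 332, 106 and 157 counts and Hars2 477, 748 and 480, and their log2 ratio was 0.58, -1.71 and -0.50 in replicates 1, 2 and 3. The cytosolic gene was thus higher in replicate 1 and the mitochondrial gene in both others, with a mean of -0.54 ± 1.15 (SD, n = 3). These genes lie head to head on chromosome 18, and 195 exon bases of each overlap the other, 9.81% of Hars and 4.56% of Hars2. They are also related in sequence, so reads could be shared, and both values are uncertain.

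**Figure D2:**
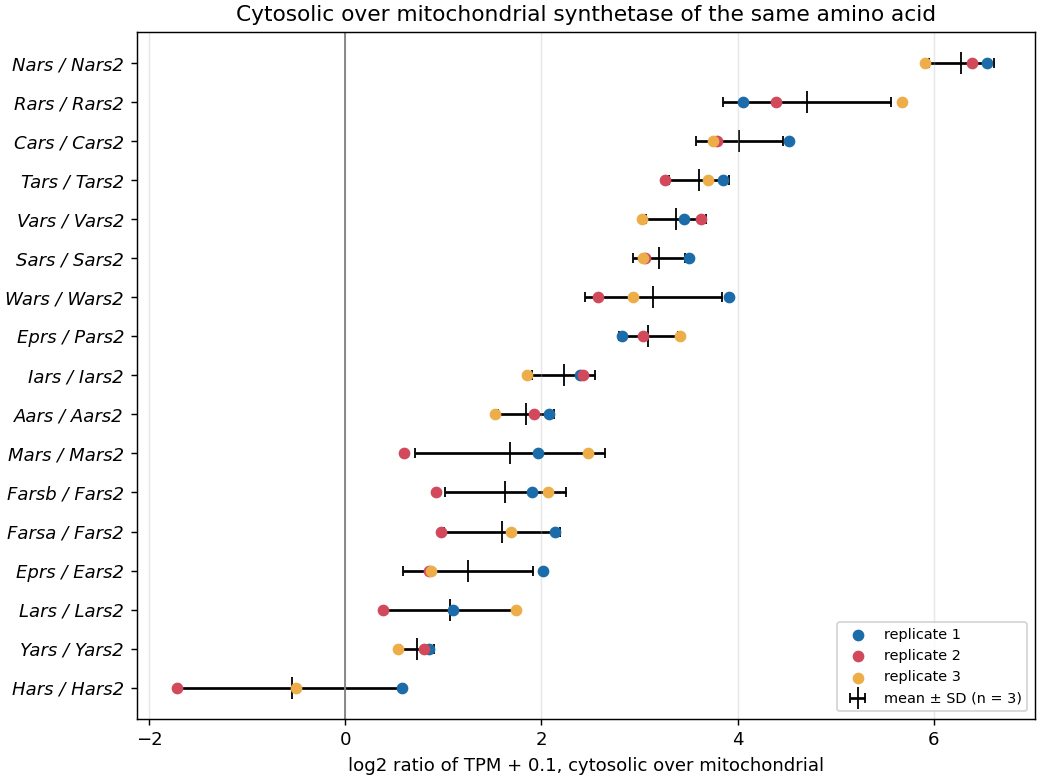
Log2 ratio of TPM + 0.1 of the cytosolic over the mitochondrial synthetase of the same amino acid, with 1 point for each library and the mean with its SD (n = 3) in black. All 3 points lie right of 0 in 16 pairs, and for Hars over Hars2 they run from -1.71 to 0.58.

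The other opposed genes differed in how far their neighbour stood above them. In 6 of the 13 listings of a synthetase with an opposing gene, with Hars and Hars2 listed from either side, the other gene had the higher TPM in every library. Mars, the methionine enzyme, had 39.3, 19.6 and 29.9 TPM, and 68 of its exon bases overlap Ddit3, the stress-response factor CHOP, which had 96.8, 89.01 and 117.6 TPM. Vars2 had 2.59, 0.879 and 2.37 TPM, and Gm20483 opposite it 75.7, 91.5 and 74.8 TPM over 465 shared exon bases. Cars2 had 1.71, 1.4 and 1.71 TPM, and Naxd, a metabolite repair enzyme, 19.9, 12.4 and 16.8 TPM. In these 3 pairs the ranges of the synthetase and of its neighbour did not overlap across libraries.

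In the remaining pairs the order was mixed. Farsb had 22.0, 10.6 and 16.6 TPM, and Sgpp2, a sphingosine-1-phosphate phosphatase, 2.28, 2.93 and 2.21 TPM. Iars2 shared 2034 exon bases, 22.9% of its own, with Rab3gap2, which had 5.84, 3.01 and 4.20 TPM. It also faced 2010103J01Rik, with 27.1, 50.8 and 36.4 TPM. Cars stood above Gm15580 and Yars above C77080 in every library, while Ears2 at 6.60 ± 1.42 TPM and Ubfd1 at 6.57 ± 1.82 TPM (SD, n = 3 each) did not differ beyond their spread. Nars2 lay below C230038L03Rik, at 6.83 ± 3.68 TPM, and Aars below Gm24103, a miRNA gene of 77 bases with 17, 23 and 16 counts. Exosc6, an exosome subunit gene on the same strand as Aars, has all 1326 of its exon bases inside Aars exons and had 0 counts in every library. The headers show no option that would count such shared reads for both genes.

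**Figure D3:**
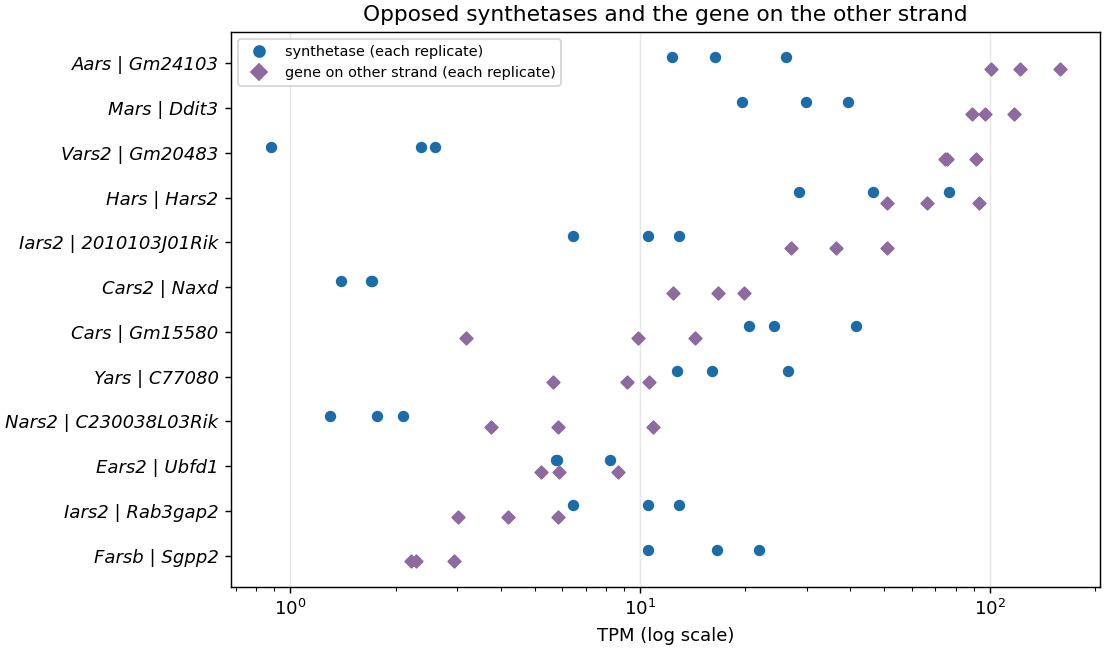
TPM (log axis) of each opposed synthetase (circles) and of the gene on the other strand (diamonds), 1 point for each library, ordered by the mean of the other gene. Vars2 lies furthest below its neighbour, at 0.879 to 2.59 TPM against 74.8 to 91.5 TPM for Gm20483.

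Members of the multisynthetase complex were compared with the remaining cytosolic genes. The complex holds the enzymes Eprs, Iars, Lars, Qars, Mars, Kars, Rars and Dars on a scaffold of 3 further proteins. The 8 enzymes had a median of 46.1, 23.4 and 29.02 TPM in replicates 1, 2 and 3, against 35.5, 14.1 and 22.1 TPM for the 12 other cytosolic genes. The difference of the medians was 0.50 ± 0.19 on the log2 scale (SD, n = 3), positive in every library. The order depended on the use of medians. Summed TPM was 370, 212 and 232 for the 8 enzymes and 726.5, 338 and 430 for the 12 others. The mean per gene was thus lower in the complex in every library. Nars and Tars, the 2 highest cytosolic genes by mean TPM, lie outside it. Within the complex, the highest mean was 4.13-fold the lowest, with Qars at 53.9 TPM and Dars at 13.04 TPM at the ends. Of the scaffold genes, Eef1e1 had 99.2, 50.6 and 47.9 TPM, Aimp2, opposed by Eif2ak1, 50.3, 40.3 and 54.1 TPM, and Aimp1, opposed by Tbck, 9.96, 4.95 and 4.53 TPM. By the usual structural classes of the catalytic domain, the 9 class I cytosolic genes had a median of 27.7 ± 10.3 TPM and the 10 class II genes 32.5 ± 16.4 TPM (SD, n = 3), which did not differ beyond their spread.

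Synthetases held a small and uneven share of the counts. The cytosolic genes took 0.225%, 0.140% and 0.164% of all counts in replicates 1, 2 and 3, and the mitochondrial genes 0.0434%, 0.0546% and 0.0407%. The 95% Wilson intervals of the cytosolic shares were 0.221% to 0.229%, 0.136% to 0.145% and 0.159% to 0.168%. Replicate 1, with the highest cytosolic share, was also the library in which opposed genes of the whole table held least, 55.1% against 69.1% and 67.3% in replicates 2 and 3, and the part of this in the shares was not tested. Over all genes tested, the median log2 TPM ratio to replicate 1 was -0.71 for replicate 2 and -0.58 for replicate 3. Taken among unopposed genes only, the unopposed synthetases held 0.466%, 0.495% and 0.462%, a mean of 0.474% ± 0.0184 (SD, n = 3).

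Most synthetases differed between replicates by more than counting noise, as most genes did. Of 32 that passed the count filter (edgeR's filterByExpr at a minimum count of 10), 23 exceeded counting noise in a one-sided chi-square test with Benjamini-Hochberg adjustment over all 9469 genes kept, where 59.6% of all genes did. At an unadjusted p under 0.05 there were also 23, where 63.5% of all genes passed. Of the 19 unopposed synthetases tested 13 exceeded it, where 50.5% of unopposed genes did. The 23 were 18 of 20 cytosolic genes, all but Farsb and Wars, and 5 of 12 mitochondrial genes, namely Ears2, Hars2, Iars2, Lars2 and Mars2. This test finds smaller differences at higher counts, and the cytosolic set held 19209 counts against 4836 for the mitochondrial set. The 2 shares therefore do not compare how variable the sets were. Without replicate 1 the count was 12 of 33, where 25.6% of all genes passed, and without replicate 2 it was 12 of 33, where 42.4% did. With unopposed genes fitted and scaled on their own it was 6 of 19, where 36.0% of those genes passed. Pars2, Rars2, Vars2 and Wars2 had too few counts to be tested.

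Which library was highest depended on the scaling. On CPM (counts scaled to library size) corrected by TMM, edgeR's adjustment for library composition, 15 of the 20 cytosolic genes were highest in replicate 1 and 16 were lowest in replicate 2, where 42.4% and 36.2% of all genes kept were so. Of the 12 unopposed cytosolic genes 9 were highest in replicate 1, where 58.5% of unopposed genes were. Of the 12 mitochondrial genes tested 0 were highest there. Over the 32 synthetases, the number highest in replicate 1 was 15 with TMM over all genes kept, 24 with library totals and 6 with TMM over unopposed genes, so the direction between libraries is not fixed by these data. Gars had 84.04, 45.3 and 68.4 TMM-scaled CPM in replicates 1, 2 and 3 (adjusted p = 1.257e-08 in the chi-square test) and Sars had 97.98, 52.7 and 91.7 (adjusted p = 3.723e-10).

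On the same TMM scale, Qars and Hars2 were lowest in replicate 1. Qars had 148, 231 and 230 TMM-scaled CPM in replicates 1, 2 and 3, close to each other in replicates 2 and 3 (chi-square test, adjusted p = 9.066e-21). Hars2 had 92.4, 265 and 177.5 (chi-square test, adjusted p = 9.037e-75), while Hars on the other strand had 64.3, 37.5 and 58.1 and was lowest in replicate 2. Ears2, for glutamate, had 12.6, 19.8 and 26.6 (chi-square test, adjusted p = 0.0001285). Mars2 was highest in replicate 2, with 47.8, 96.6 and 37.7, and Lars2 had 73.4, 91.96 and 35.5 (adjusted p = 1.211e-21 and 1.565e-14 in the chi-square test).

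In the fit of all genes kept, no synthetase passed a test for excess variation against genes of like abundance after adjustment. In edgeR's trend test, which compares each gene's deviance with the trended dispersion, 0 of 32 passed the Benjamini-Hochberg threshold of 0.05, where 0.201% of all genes did. At an unadjusted p under 0.05 there were 3, Hars2 (0.0417), Mars2 (0.0279) and Lars2 (0.0454), where 6.82% of all genes passed. DESeq2 marked 0 of the 32 as dispersion outliers, where it marked 4 of all 9469 genes kept. When unopposed genes were fitted on their own, 1 of 19 synthetases, Mars2, passed the edgeR trend test, where 1.33% of those genes did.

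**Figure D4:**
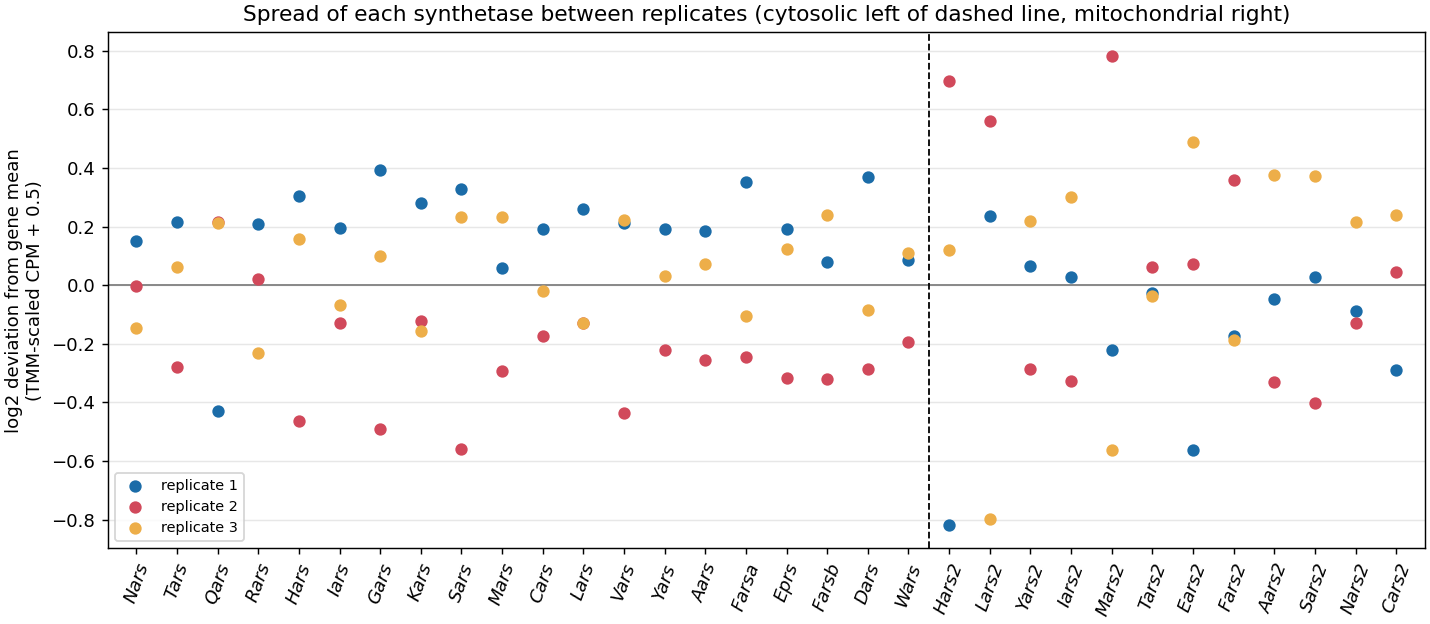
Deviation of each library from the gene's mean, in log2 of TMM-scaled CPM + 0.5, for the 32 synthetases that passed the count filter, cytosolic left of the dashed line and mitochondrial right of it. Replicate 2 is the lowest point for 16 of 20 cytosolic genes, and Hars2, Lars2 and Mars2 show the widest spreads.

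Genes that act beside the synthetases were listed by role. The ATF4 axis, through which amino acid shortage is known to raise synthetase transcription, was uneven in level. Atf4 itself had 417, 164.5 and 241 TPM in replicates 1, 2 and 3, Atf5 63.05, 109.1 and 73.6 TPM with exons opposed by Nup62 and Il4i1, and Phgdh and Psat1, of serine synthesis, 12.4 ± 6.39 and 12.2 ± 7.26 TPM (SD, n = 3 each). Asns, the asparagine synthetase that makes the amino acid itself, had 3, 3 and 0 counts, and Chac1, a glutathione-degrading enzyme, had none. Of the 11 genes, 8 had at least 1 TPM throughout, and their median was 4.06 ± 1.87 TPM (SD, n = 3). Of 6 tested, 5 exceeded counting noise in the chi-square test after adjustment, where 59.6% of all genes did.

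Genes of tRNA maturation and export had a median between those of the cytosolic and mitochondrial synthetases. The 11 genes had a median of 15.7 ± 7.10 TPM (SD, n = 3), and 10 reached 1 TPM in every library. Ssb, the La protein that binds new polymerase III transcripts, had 433, 215 and 245 TPM, Trnt1, which adds the CCA end, 197, 232 and 218 TPM, and both are opposed. Xpot, the tRNA exporter, unopposed, had 23.8, 10.5 and 12.8 TPM. Of 10 tested, 7 exceeded counting noise, near the 59.6% of all genes. The 5 genes of tRNA transcription had a median of 10.7 ± 3.21 TPM (SD, n = 3), all 5 at 1 TPM or more, and of 5 tested 1, Brf1, exceeded counting noise.

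Mitochondria make glutaminyl-tRNA by an amidotransferase of 3 subunits in place of a glutamine enzyme of their own. Gatc had 131, 201 and 181 TPM, Qrsl1 5.78, 3.03 and 3.95 TPM, and Gatb 0.744, 0.248 and 0.959 TPM from 7, 2 and 7 counts. The ranges of the 3 subunits did not overlap across libraries. Gatc is unopposed and was lowest in replicate 1. Of the 2 subunits tested 1, Gatc, exceeded counting noise, where 59.6% of all genes did. In none of these lists, the complex scaffold included (2 of 3 beyond counting noise), did a gene pass the edgeR trend test after adjustment. Of all genes kept, 0.201% passed that trend test.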

How the data were processed

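RNA was sequenced from 3 libraries of Th1 cells, which form 1 group by their labels. The authors deposited raw counts of read pairs per gene, made with featureCounts 1.4.6-p4 on GENCODE vM13 exons (mm10) at strand setting 1 after an alignment step named star2, per the file headers. Its version is not given in the sources used here. The same files give the exon bases of each gene. TPM was computed from these counts and lengths over all 50600 genes. Symbols came from GENCODE vM21 by gene identifier (99.56% matched), and promoters from RefSeq.

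Depth ranged from 2950658 to 4442901 counts, and 3 counts, the limit that a count of 0 allows, equal 0.675 to 1.02 CPM by counting error only. Spread was tested with edgeR 4.0.16 in R 4.3.3 (TMM scaling, filterByExpr at a minimum count of 10, 2 degrees of freedom, threshold 0.05). DESeq2 1.42.0 served as the alternative. The tests were tested on simulated data. The genes and lists were chosen with earlier results of these data known. Values in every library are given for the 8 highest and 3 lowest cytosolic and the 4 highest and 3 lowest mitochondrial genes. They are also given for opposed genes, for most of their neighbours, and for genes past a test. Of the neighbours, Ubfd1 and C230038L03Rik have a mean only, and Gm15580 and C77080 an order only. Alternatives covered scaling, pseudocount, filters, strand class and leaving out each library. A further promoter window and a marker gene are not reported here.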

Additional observations from a re-analysis of the deposited data

How the results depend on the processing

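No paired analysis was possible because there is 1 group. Of 54 alternative values 46 stayed within their spread or within 1.5 times the main count. Not all of the 46 could have moved. Every synthetase had a mean of at least 1 TPM, so a filter at that mean removed none of them. The number detected, 33 at 1 TPM, was 36 at 0.5 TPM and 27 at 5 TPM, and both count as unmoved. The cytosolic minus mitochondrial log2 difference, 2.60, was 2.30 with a pseudocount of 1, 2.45 with CPM and 2.68 over unopposed genes, and ran from 2.47 to 2.75 with 1 library left out. The number of synthetases beyond counting noise, 23, was 6 of 19 when unopposed genes were fitted and scaled on their own, against 13 of the same number in the fit of all genes, and the cause was not tested. It was 12 to 18 with 1 library left out (12 without replicate 1 and 12 without replicate 2). The number beyond the dispersion trend, 0, was 1 among unopposed genes. The synthetases' share of counts, 0.223%, was 0.474% among unopposed genes, and without 1 library it ran from 0.1997% to 0.236%. The number of synthetases highest in replicate 1, 15, was 6 with TMM over unopposed genes and 24 with library totals. The cytosolic median log2 difference of replicate 3 from replicate 1 was -0.16 with TMM over all genes kept, 0.07 with TMM over unopposed genes and -0.50 with library totals, so its direction changed with the scaling, and the cause was not tested. The alternatives with unopposed genes for the share and for the scaling, those with library totals, and the one without Hars and Hars2 (2.82) were chosen after seeing the data. Depth limits Rars2, Pars2, Vars2 and Wars2, which were not tested for spread.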

Other observations

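The lists of editing and of the selenocysteine route held genes at very different levels. The 6 genes of editing and peptidyl-tRNA hydrolysis had a median of 1.53 ± 0.565 TPM (SD, n = 3), and 3 of them reached 1 TPM in every library. Ptrh2, a mitochondrial peptidyl-tRNA hydrolase, had 9.05, 4.94 and 6.96 TPM in replicates 1, 2 and 3, Prorsd1 7.09, 2.76 and 5.26 TPM, and Aarsd1, an editing relative of the alanine enzyme, 0, 3 and 3 counts. Of the 2 tested, 0 exceeded counting noise in the chi-square test, adjusted or unadjusted, and 0 passed the edgeR trend test, adjusted or unadjusted. Among all genes kept, 59.6% exceeded counting noise with adjustment and 63.5% without it. The trend test was passed by 0.201% with adjustment and 6.82% without it.

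Selenocysteine is made on its own tRNA, after serine has been attached by the enzyme that Sars encodes. Pstk, the kinase of that route, had 85.8, 107.4 and 89.2 TPM, and Sepsecs, which completes the conversion, 3.27, 1.15 and 0.337 TPM from 50, 15 and 4 counts. Eefsec, the elongation factor for selenocysteine, had 4.08, 1.52 and 2.31 TPM and is opposed by Gm44264. Pstk has exons opposed by Ikzf5, a gene of the other strand, and Sepsecs is unopposed. Pstk, the 1 gene of the 3 tested, exceeded counting noise in the chi-square test after adjustment, where 59.6% of all genes did. The level of Pstk was above that of Sepsecs in 3 of 3 libraries.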
